A study of Mus musculus with 17 samples.

Results

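A set of 8 germline genes was followed in mouse embryonic stem cells that were differentiating in culture: Tex19.1, Tdrd12, Mael, Morc1, Ddx4, Dazl, Stra8 and Dnmt3l. They were listed as germline and methylation-sensitive genes, and several were chosen by their measured lower levels in the cells sorted as FOXA2-positive. All 8 were found among the 49671 genes counted, and all 8 were among the 17813 genes with enough reads to be tested. Because the difference between the sorted fractions chose genes of this set, that difference is given for them as a description, without a test. Differences between treatments within a fraction were not themselves used in the choice and were tested. Those within FOXA2-positive cells are not independent of it, since they use libraries whose low levels entered the choice.

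The cells were R1 mouse embryonic stem cells of the genotype FOXA2-Venus, in which Venus, a fluorescent protein, marks FOXA2, a transcription factor of the floor plate at the ventral midline of the neural tube. BMP4 cells and LDN cells had received RA for 18 hours, no treatment for 6 hours and then BMP4, a secreted signal of the bone morphogenetic protein family, or LDN for 8 hours. For RA cells (RA is the usual abbreviation of retinoic acid) the labels give only the 18 hours, so treatment and time cannot be told apart wherever BMP4 or LDN cells are set against RA cells. Each treatment was sorted into FOXA2-positive and FOXA2-negative cells, and all groups came from the same line, as SMART-Seq v2 libraries of bulk RNA. There were 3 libraries in each of 5 groups and 2 in FOXA2-positive LDN cells, numbered 2 and 3, of which library 1 was not analysed here.

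Germ cells protect their genome from transposons with the piRNA pathway, in which small RNAs guide PIWI proteins, and with DNA methylation laid down anew during their development. Many germline genes are silenced by promoter methylation in somatic cells and are transcribed at low levels in embryonic stem cells, where that methylation is incomplete. STRA8 is induced by retinoic acid and is known for its role at the entry into meiosis.

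The 17 libraries held between 8435845 and 10796136 gene counts, with a median of 9785138. Mitochondrial genes took 7.43% of counts in FOXA2-positive RA library 1 and 6.94% in FOXA2-negative RA library 1, against 4.81% or less in the other libraries. Foxa2 itself averaged 25.9, 42.0 and 23.0 CPM (gene counts scaled to a library total of 1000000) in FOXA2-positive BMP4, LDN and RA cells, against 0.775, 1.85 and 0.311 CPM in the FOXA2-negative cells of the same treatments. Markers of pluripotent cells were present in both fractions, with the summed level of the 15 listed genes between 1297 and 2923 CPM in FOXA2-positive libraries and between 2017 and 4334 CPM in FOXA2-negative ones. Of 10 listed markers of primordial germ cells, Prdm14 alone was at 0 in all FOXA2-positive libraries. The list had median log2 differences, FOXA2-positive over FOXA2-negative, of -1.05, -1.33 and -1.47 in BMP4, LDN and RA cells. In FOXA2-positive BMP4, LDN and RA cells Dppa3 averaged 2.79, 1.85 and 2.08 CPM and Nanos3 1.2, 0 and 0.282 CPM. Prdm1, which is also made in endoderm and ran against the list median, averaged 6.36, 20.4 and 16.7 CPM in these groups. Rhox5 averaged 46.9, 34.0 and 37.4 CPM in the same groups.

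RefSeq promoter entries were found for 7 of the 8 genes, all but Morc1, and were read as the 250 bases before each annotated start on GRCm38.p6. They are shown because the genes divide by the CpG content of these windows, the substrate of DNA methylation. The windows of Ddx4, Dazl, Mael and Tex19.1 held 31, 20, 18 and 15 CpG dinucleotides, against a median of 6 over 32851 promoter windows. That of Stra8 held 5, the 2 entries of Tdrd12 held 6 and 5, and the 3 entries of Dnmt3l held 5, 4 and 3. By the gene coordinates given below, from GENCODE, the windows of Stra8 and of Dnmt3l lie within the gene. Their low CpG counts therefore do not describe the sequence before that gene start. The windows of the other genes lie before the gene start or reach over it. Capitals mark GCGGGA or its reverse complement TCCCGC (an E2F-type motif, on either strand in 16.9% of all windows), the palindrome CACGTG (an E-box, in 6.02%) and AGGTCA or TGACCT (a retinoic acid receptor half-site, in 14% of windows). No 2 of these motifs overlapped in the windows printed, and each sequence runs 5′ to 3′ on the strand of its gene.
Tex19.1 (chr11:121145893-121146142, plus strand): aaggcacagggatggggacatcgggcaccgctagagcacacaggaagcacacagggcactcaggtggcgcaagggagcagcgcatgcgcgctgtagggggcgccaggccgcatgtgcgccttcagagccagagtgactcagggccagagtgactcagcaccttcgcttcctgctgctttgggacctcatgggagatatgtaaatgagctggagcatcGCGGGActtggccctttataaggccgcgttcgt
Mael (chr1:166238745-166238994, minus strand): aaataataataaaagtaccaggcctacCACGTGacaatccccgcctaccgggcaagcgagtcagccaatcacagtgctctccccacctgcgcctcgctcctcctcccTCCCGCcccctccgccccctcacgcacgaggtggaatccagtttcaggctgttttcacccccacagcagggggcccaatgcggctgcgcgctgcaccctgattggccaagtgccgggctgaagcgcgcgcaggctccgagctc
Ddx4 (chr13:112652311-112652560, minus strand): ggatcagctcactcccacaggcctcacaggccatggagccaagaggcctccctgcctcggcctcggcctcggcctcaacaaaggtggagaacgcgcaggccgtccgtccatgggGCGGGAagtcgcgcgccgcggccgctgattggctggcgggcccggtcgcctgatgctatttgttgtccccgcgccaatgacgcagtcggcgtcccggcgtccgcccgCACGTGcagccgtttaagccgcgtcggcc
Dazl (chr17:50293621-50293870, minus strand): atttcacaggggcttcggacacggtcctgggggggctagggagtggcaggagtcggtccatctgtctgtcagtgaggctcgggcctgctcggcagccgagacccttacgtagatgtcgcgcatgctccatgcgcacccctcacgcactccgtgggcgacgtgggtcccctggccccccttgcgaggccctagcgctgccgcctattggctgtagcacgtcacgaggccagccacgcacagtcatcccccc
Stra8 (chr6:34920698-34920947, plus strand): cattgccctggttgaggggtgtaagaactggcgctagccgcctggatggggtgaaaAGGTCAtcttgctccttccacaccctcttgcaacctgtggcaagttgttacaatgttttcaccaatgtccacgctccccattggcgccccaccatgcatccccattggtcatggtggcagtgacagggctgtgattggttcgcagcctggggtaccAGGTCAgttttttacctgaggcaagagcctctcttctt
The E2F-type motif occurred once each in the windows of Tex19.1, Ddx4 and Mael, and in none of the other windows of the set. Ddx4 and Mael each held 1 E-box, as did the second entry of Dnmt3l, and Stra8 held 2 half-sites. The window of Dazl held none of the 3 motifs. These are letter matches and not measured binding sites, and no methylation was measured.

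Across all 17 libraries the genes covered a wide range of levels. Per kilobase of exon, Stra8 averaged 361 CPM, Tex19.1 17.3, Dnmt3l 10.1, Mael 4.77, Tdrd12 4.40, Ddx4 2.72, Morc1 2.47 and Dazl 2.16. Stra8 was thus far above the other 7, and Ddx4, Morc1 and Dazl lay close together at the low end. In raw reads the lowest library value was 9 for Morc1, 20 each for Dazl and Ddx4, and 3499 for Stra8, so the genes at the low end carry the larger counting error.

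**Figure D1:**
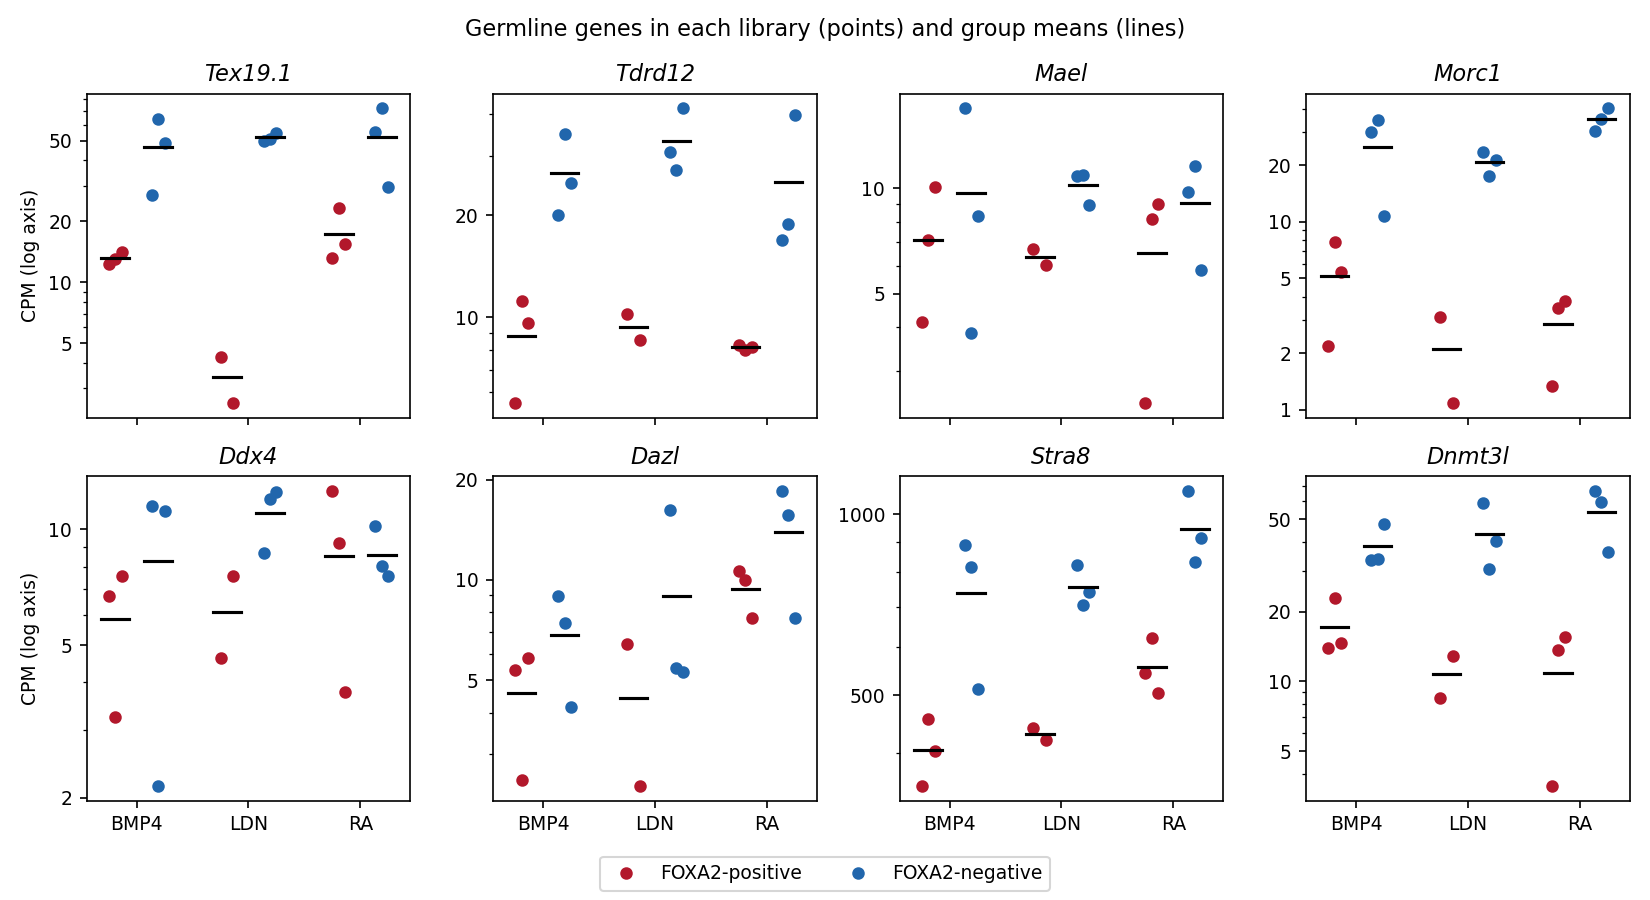
Level of each of the 8 genes in CPM (vertical log axis) in FOXA2-positive (red) and FOXA2-negative (blue) cells of each treatment, with 1 point per library and a line at the group mean. The FOXA2-positive points of Tex19.1, Tdrd12, Morc1, Stra8 and Dnmt3l lie below the FOXA2-negative points of the same treatment, while those of Mael, Ddx4 and Dazl overlap in BMP4 and RA cells.

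In the plot of levels by library, 5 genes separated the fractions in every treatment and 3 did not. In BMP4 cells 5 of the 8 had every FOXA2-positive library below every FOXA2-negative one, in LDN cells 7 of 8 (Dazl being the exception) and in RA cells 5 of 8. Over all tested genes the same separation downwards was found for 7.31% in BMP4, 14.7% in LDN and 7.99% in RA cells, and calls at an adjusted p below 0.05 in either direction for 0.921%, 0.994% and 1.19%. The median log2 difference of FOXA2-positive over FOXA2-negative cells for the 8 genes was -1.02 in BMP4, -1.42 in LDN and -1.18 in RA cells, beside -0.00, -0.03 and 0.00 over all tested genes. Nothing is read from these counts, since this contrast entered the choice of genes. In bulk RNA, fewer cells of a type and less RNA per cell cannot be told apart.

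**Figure D2:**
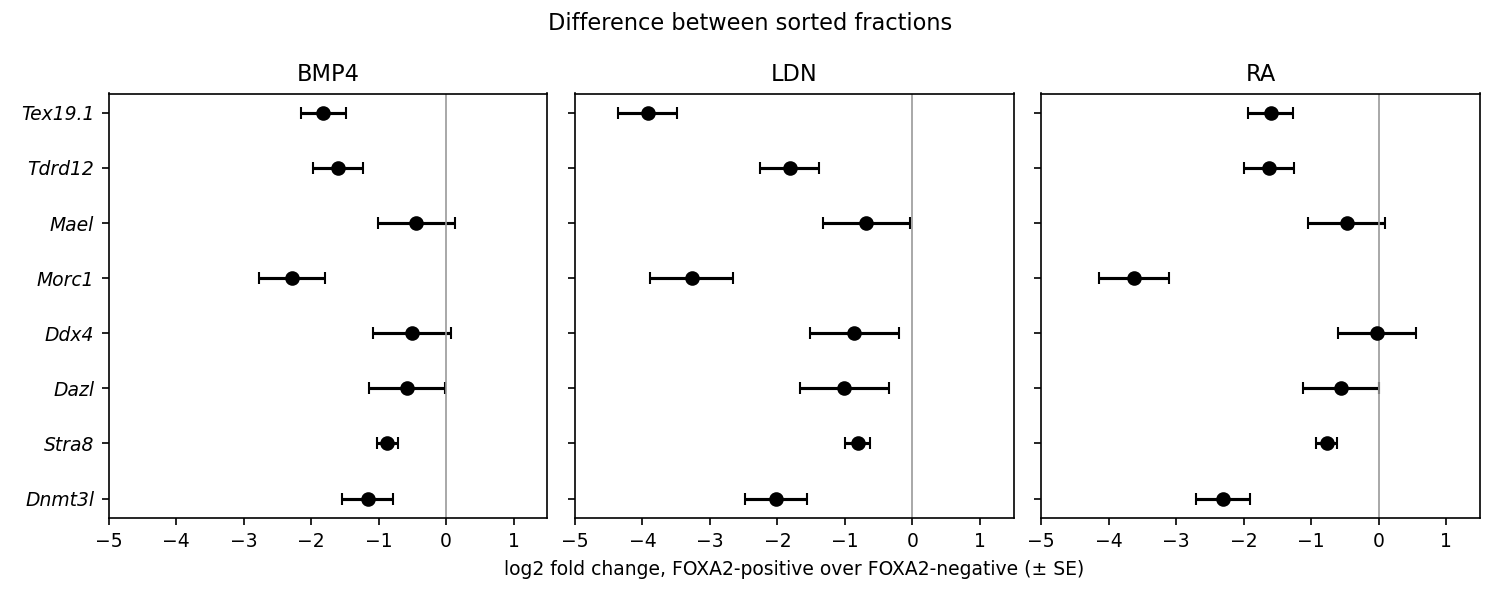
Log2 difference of FOXA2-positive over FOXA2-negative cells (horizontal axis, points with ± SE from the edgeR model) for the 8 genes in BMP4, LDN and RA cells. Morc1 lies at -2.29, -3.27 and -3.62 and Tex19.1 at -1.82, -3.92 and -1.60, while Mael, Ddx4 and Dazl lie between -1.01 and -0.02.

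Tex19.1 (ENSMUSG00000039329, chr11:121146143-121148319, plus strand) encodes a protein of placental mammals that restrains retrotransposons in germ cells and is also made in embryonic stem cells. It had 12.3, 13.1 and 14.2 CPM in FOXA2-positive BMP4 cells, against 27.1, 64.0 and 48.7 CPM in FOXA2-negative BMP4 cells. In FOXA2-positive LDN cells it had 4.26 and 2.53 CPM, against 50.1, 50.9 and 54.9 CPM in FOXA2-negative LDN cells. In FOXA2-positive RA cells it had 13.2, 23.3 and 15.4 CPM, against 55.5, 72.4 and 29.6 CPM in FOXA2-negative RA cells. The fractions did not overlap in any treatment, and the 2 FOXA2-positive LDN libraries were the lowest of all 17. The log2 differences were -1.82 ± 0.33 (SE) in BMP4, -3.92 ± 0.44 in LDN and -1.60 ± 0.33 in RA cells. Its paralogue Tex19.2, to which reads could be misassigned, averaged 1.5 CPM over all libraries.

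Tdrd12 (ENSMUSG00000030491, chr7:35469098-35537745, minus strand) encodes a Tudor-domain protein with a helicase domain that acts in the making of piRNAs. It had 5.57, 11.2 and 9.60 CPM in FOXA2-positive BMP4 cells, against 20.1, 34.9 and 24.9 CPM in FOXA2-negative BMP4 cells. The FOXA2-positive LDN libraries held 10.2 and 8.55 CPM, against 30.9, 27.2 and 41.5 CPM in the FOXA2-negative ones. The FOXA2-positive RA libraries held 8.30, 7.98 and 8.18 CPM, against 16.9, 18.9 and 39.6 CPM in the FOXA2-negative ones. All 8 FOXA2-positive libraries were therefore below all 9 FOXA2-negative ones, and the log2 differences of -1.60 ± 0.37, -1.82 ± 0.43 and -1.62 ± 0.37 in BMP4, LDN and RA cells lay within 1 SE of each other. A processed pseudogene on the same strand, Gm18558, overlaps Tdrd12 and averaged 1.05 CPM.

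Mael (ENSMUSG00000040629, chr1:166201201-166238747, minus strand) encodes maelstrom, a piRNA pathway protein with an HMG box. Its levels were 4.16, 7.12 and 10.1 CPM in FOXA2-positive BMP4 cells, against 16.9, 3.87 and 8.30 CPM in FOXA2-negative BMP4 cells. LDN cells had 6.72 and 6.02 CPM in the FOXA2-positive fraction, against 10.8, 10.9 and 8.92 CPM in the FOXA2-negative one. RA cells had 2.43, 8.16 and 9 CPM in the FOXA2-positive fraction, against 9.72, 11.6 and 5.82 CPM in the FOXA2-negative one. The fractions overlapped in BMP4 and RA cells, and the lowest FOXA2-positive RA value came from library 1. The log2 differences were -0.44 ± 0.57 in BMP4, -0.68 ± 0.65 in LDN and -0.47 ± 0.57 in RA cells, and that in BMP4 cells turned to 0.22 without FOXA2-negative library 1.

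Morc1 (ENSMUSG00000022652, chr16:48431237-48630900, plus strand) encodes an ATPase required for the silencing of transposons in male germ cells. It had 2.17, 7.86 and 5.43 CPM in FOXA2-positive BMP4 cells, against 30.0, 34.9 and 10.7 CPM in FOXA2-negative BMP4 cells. The FOXA2-positive LDN libraries had 3.12 and 1.08 CPM, against 23.5, 17.6 and 21.3 CPM in the FOXA2-negative ones. The FOXA2-positive RA libraries had 1.33, 3.47 and 3.78 CPM, against 30.6, 35.3 and 40.3 CPM in the FOXA2-negative ones. Every FOXA2-positive library was below every FOXA2-negative one, and the log2 differences were -2.29 ± 0.49 in BMP4, -3.27 ± 0.62 in LDN and -3.62 ± 0.52 in RA cells. The FOXA2-positive values rest on few reads, with 154, 42 and 86 in all in BMP4, LDN and RA cells.

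Ddx4 (ENSMUSG00000021758, chr13:112598333-112652475, minus strand), the mouse vasa gene, encodes an RNA helicase of germ cells and a classic marker of them. It had 6.71, 3.25 and 7.56 CPM in FOXA2-positive BMP4 cells, against 11.5, 2.15 and 11.2 CPM in FOXA2-negative BMP4 cells. In LDN cells it had 4.64 and 7.58 CPM in the FOXA2-positive fraction, against 8.70, 12 and 12.5 CPM in the FOXA2-negative one. In RA cells it had 12.6, 9.20 and 3.78 CPM in the FOXA2-positive fraction, against 10.2, 8.03 and 7.58 CPM in the FOXA2-negative one. The fractions overlapped in BMP4 and RA cells. The RA means lay close together, at 8.53 ± 4.45 CPM for the FOXA2-positive fraction, against 8.62 ± 1.43 CPM for the FOXA2-negative one (SD, n = 3 each). The log2 differences were -0.51 ± 0.58 in BMP4, -0.86 ± 0.66 in LDN and -0.02 ± 0.58 in RA cells. The last of these turned to 0.13 without FOXA2-negative RA library 1 and to 0.34 without FOXA2-positive RA library 3.

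Dazl (ENSMUSG00000010592, chr17:50279395-50293636, minus strand) encodes an RNA-binding protein that controls translation in germ cells. It had 5.38, 2.51 and 5.82 CPM in FOXA2-positive BMP4 cells, against 8.96, 7.42 and 4.15 CPM in FOXA2-negative BMP4 cells. The FOXA2-positive LDN libraries had 6.44 and 2.41 CPM, against 16.2, 5.44 and 5.29 CPM in the FOXA2-negative ones. The FOXA2-positive RA libraries had 10.6, 10 and 7.67 CPM, against 18.5, 15.7 and 7.69 CPM in the FOXA2-negative ones. The fractions overlapped in all 3 treatments. The log2 differences of -0.58 ± 0.57, -1.01 ± 0.66 and -0.56 ± 0.56 in BMP4, LDN and RA cells were each within 2 SE of 0.

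Stra8 (ENSMUSG00000029848, chr6:34920163-34939344, plus strand) was the gene with the highest level and the smallest error. It had 353, 457 and 404 CPM in FOXA2-positive BMP4 cells, against 889, 817 and 511 CPM in FOXA2-negative BMP4 cells. The FOXA2-positive LDN libraries had 441 and 421 CPM, against 824, 706 and 742 CPM in the FOXA2-negative ones. The FOXA2-positive RA libraries had 543, 622 and 503 CPM, against 1093, 833 and 912 CPM in the FOXA2-negative ones. The fractions did not overlap within a treatment, and the log2 differences of -0.87 ± 0.16, -0.81 ± 0.19 and -0.77 ± 0.16 in BMP4, LDN and RA cells were alike in size. The 335 genes of chromosome 6 with at least 20 CPM on average, among them Stra8, had median log2 differences of 0.34, 0.24 and 0.31 in BMP4, LDN and RA cells, beside 0.01, -0.00 and 0.02 on the other chromosomes.

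Dnmt3l (ENSMUSG00000000730, chr10:78041947-78063622, plus strand) encodes a cofactor without catalytic activity of the DNA methyltransferases DNMT3A and DNMT3B. It had 14.0, 22.8 and 14.7 CPM in FOXA2-positive BMP4 cells, against 33.4, 33.8 and 48.0 CPM in FOXA2-negative BMP4 cells. The FOXA2-positive LDN libraries had 8.52 and 12.9 CPM, against 59.1, 30.7 and 40.3 CPM in the FOXA2-negative ones. The FOXA2-positive RA libraries had 3.54, 13.7 and 15.5 CPM, against 66.4, 59.6 and 36.1 CPM in the FOXA2-negative ones. No FOXA2-positive library reached a FOXA2-negative one, and the value of 3.54 CPM came from library 1. The log2 differences were -1.16 ± 0.38 in BMP4, -2.02 ± 0.46 in LDN and -2.30 ± 0.40 in RA cells. Aire, on the opposite strand, overlaps Dnmt3l and averaged 0.687 CPM, and since the strand setting of the counting is not given in the sources used here its reads cannot be told apart from those of Dnmt3l.

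The 3 genes whose fractions overlapped in both BMP4 and RA cells, Mael, Ddx4 and Dazl, were 3 of the 4 with CpG-rich windows. They also had the lowest mean CPM of the 8, at 8.26, 8.19 and 8.25 over all libraries. This grouping was made after the values were seen, and the part of promoter CpG content or of read depth in it was not tested.

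Ordered by mean level, the 3 FOXA2-negative groups came above the 3 FOXA2-positive groups for Tex19.1, Tdrd12, Morc1, Stra8 and Dnmt3l. For these genes the neighbouring FOXA2-negative groups overlapped in their libraries, except that every FOXA2-negative RA library exceeded every FOXA2-negative LDN library for Stra8. Among the FOXA2-positive groups the neighbours without overlap were BMP4 above LDN for Tex19.1 and RA above LDN for Stra8. Between the fractions, FOXA2-negative BMP4 libraries overlapped with FOXA2-positive RA libraries for Stra8. For Dazl, Ddx4 and Mael all neighbouring groups overlapped.

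Whether BMP4 or LDN changed these genes within a sorted fraction was tested with edgeR's quasi-likelihood test and Benjamini-Hochberg adjustment over all 17813 genes. Tex19.1 was lower in FOXA2-positive LDN cells than in FOXA2-positive RA cells, and higher in FOXA2-positive BMP4 cells than in FOXA2-positive LDN cells. None of the other 7 genes passed the test in any of the 6 comparisons between treatments. In FOXA2-negative cells no gene of the set passed.

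**Figure D3:**
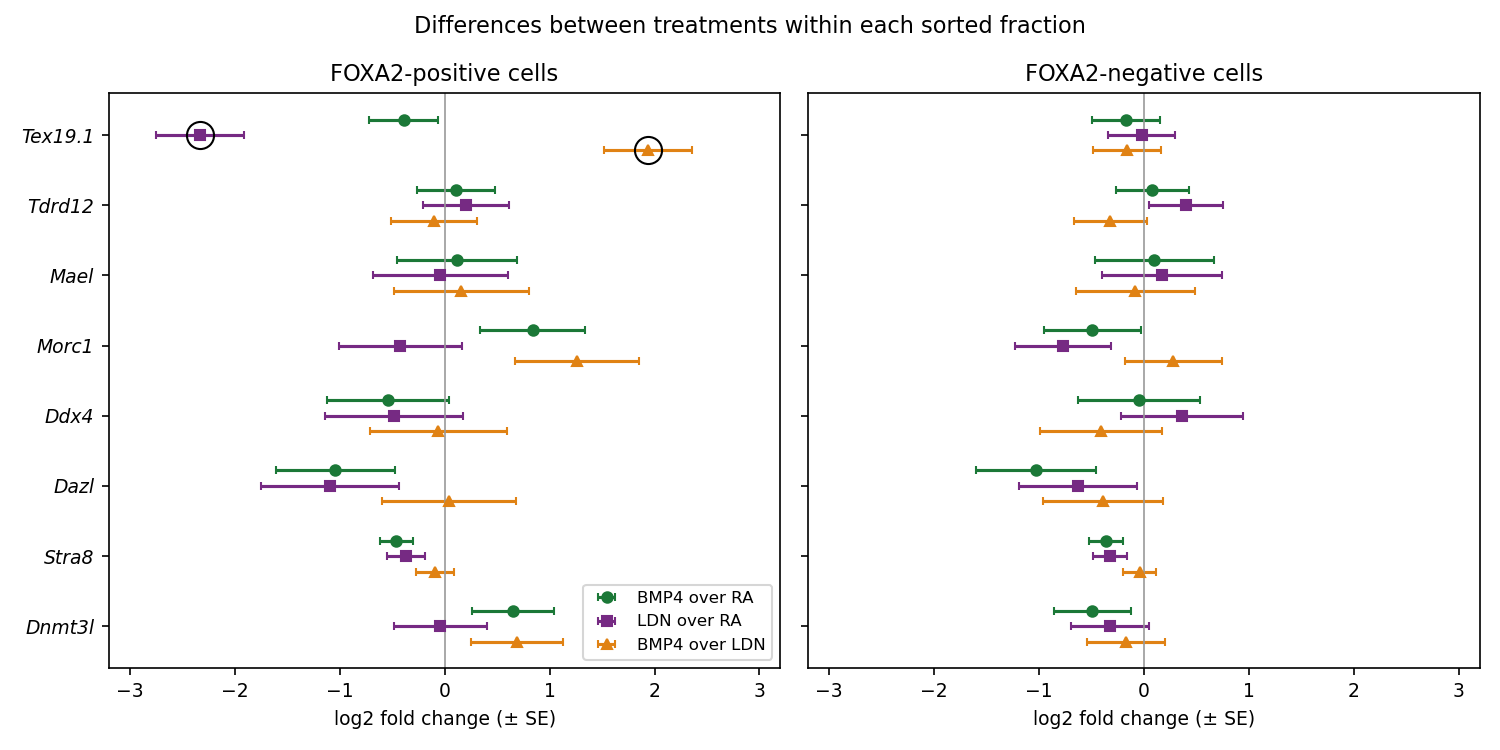
Log2 differences between treatments (horizontal axis, points with ± SE) for the 8 genes within FOXA2-positive cells (left) and FOXA2-negative cells (right), with circles around those with an adjusted p below 0.05. The 2 circles mark Tex19.1 in FOXA2-positive cells, at -2.33 for LDN over RA and 1.94 for BMP4 over LDN.

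In FOXA2-positive cells Tex19.1 averaged 3.39 ± 1.22 CPM after LDN (SD, n = 2) and 17.3 ± 5.30 CPM after RA (n = 3), with no overlap between libraries. The log2 difference of -2.33 ± 0.42, LDN over RA, had an adjusted p of 0.0114 by edgeR's quasi-likelihood test, and 0.208% of all tested genes were called in that comparison. Without adjustment it was the only one of the 8 with a p below 0.05, beside 9.35% of all genes. Without LDN library 3 the adjusted p was 0.25, with a log2 difference of -2.02. A model of the compared groups alone gave an adjusted p of 0.185.

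After BMP4 the FOXA2-positive cells averaged 13.2 ± 0.939 CPM of Tex19.1 (SD, n = 3), against 3.39 ± 1.22 CPM after LDN (n = 2). The log2 difference, BMP4 over LDN, was 1.94 ± 0.42 with an adjusted p of 0.0298 by edgeR's quasi-likelihood test, where 0.32% of all genes were called. Leaving out any 1 of the 5 libraries ended the call of Tex19.1, with adjusted p-values between 0.0602 and 0.446 and log2 differences between 1.63 and 2.37. The groups-alone model gave an adjusted p of 0.209. Without adjustment Morc1, which was 2.4-fold higher after BMP4, was also below 0.05, making 2 of 8 beside 7.37% of all genes. Both calls of Tex19.1 rest on the same 2 LDN libraries, which also stood in the fraction contrast that led to Tex19.1 being chosen. In FOXA2-negative cells the log2 differences of Tex19.1 were -0.02 ± 0.32 for LDN over RA and -0.16 ± 0.32 for BMP4 over LDN.

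Tfap2c, a marker gene of primordial germ cells and trophoblast, was named after its values were seen. It stood the same way as Tex19.1 for BMP4 over LDN and for LDN over RA, but not for BMP4 over RA. In FOXA2-positive cells it had 21.7, 26.5 and 17.3 CPM after BMP4, against 7.29 and 5.66 CPM after LDN, without overlap. The log2 difference, BMP4 over LDN, was 1.75 ± 0.30 with an edgeR adjusted p of 0.00284, and that of LDN over RA was -0.77 ± 0.30 and did not pass (edgeR adjusted p = 0.396). Its fraction effect in BMP4 cells minus that in LDN cells was 2.28 ± 0.38 with an edgeR adjusted p of 0.013. The difference between treatments was called in 10 of 12 alternatives, not without FOXA2-positive LDN library 3 (edgeR adjusted p = 0.129) or with the compared groups alone (0.113). The difference of fraction effects was called in 12 of 18, and each loss came with 1 library left out, namely FOXA2-positive LDN library 2 or 3, FOXA2-negative LDN library 3, FOXA2-positive BMP4 library 2, or FOXA2-negative BMP4 library 1 or 2 (edgeR adjusted p up to 0.136). For BMP4 over RA in FOXA2-positive cells Tfap2c was at 0.98 ± 0.25, without overlap, against -0.39 ± 0.33 for Tex19.1. Neither passed (edgeR adjusted p = 0.305 and 0.931). Of other primordial germ cell markers, Prdm1 went the other way for BMP4 over LDN in FOXA2-positive cells (-1.68 ± 0.88) and did not pass. Dppa3 was at 0.55 ± 1.13 there, and Nanos3 had 36 reads after BMP4 and 0 after LDN. Of the listed trophoblast markers, Tfap2a (4.08 ± 0.53, edgeR adjusted p = 0.000518) and Gata3 (2.73 ± 0.42, edgeR adjusted p = 0.000802) were also called there. The other genes of that list are not given here. The part of primordial germ cell-like or trophoblast cells, or of genes that differ in the same way, in the level of Tex19.1 was not tested.

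The fraction effects, the log2 differences of FOXA2-positive over FOXA2-negative cells, entered the choice of genes, so how they differ between treatments is given as a description for the 8. For Tex19.1 the fraction effect in LDN cells minus that in RA cells was -2.32 ± 0.52, and that in BMP4 cells minus that in LDN cells was 2.10 ± 0.52. For Dnmt3l that in BMP4 cells minus that in RA cells was 1.14 ± 0.54. In edgeR's quasi-likelihood test with Benjamini-Hochberg adjustment 0 of 8 genes passed in any of the 3 comparisons of fraction effects, and DESeq2 called 0 of 8. Over all tested genes 0.00561% passed for BMP4 over RA, 0.00561% for LDN over RA and 0.0337% for BMP4 over LDN. At an unadjusted p below 0.05 there was 1 of 8 in each comparison, beside 4.17% (BMP4 over RA), 5.81% (LDN over RA) and 6.18% (BMP4 over LDN) of all genes. Nothing is read from these counts.

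Stra8 was the gene with the next smallest p between treatments. In FOXA2-positive cells it averaged 404 ± 52.1 CPM after BMP4 and 556 ± 60.7 CPM after RA (SD, n = 3 each), without overlap, and the log2 difference was -0.46 ± 0.16. By edgeR's quasi-likelihood test the unadjusted p was 0.00903 and the adjusted p 0.765, and 0 of 8 genes passed where 0.0786% of all genes did. At an unadjusted p below 0.05 Stra8 was 1 of 8, beside 5.6% of all genes, and DESeq2 called 0 of 8. In FOXA2-negative cells it averaged 739 ± 201 CPM after BMP4 and 946 ± 133 CPM after RA (SD, n = 3 each), a log2 difference of -0.36 ± 0.16 with an adjusted p of 0.672 by the same edgeR test. After LDN the log2 differences from RA were -0.37 ± 0.18 in FOXA2-positive and -0.32 ± 0.16 in FOXA2-negative cells. All 4 values lay below 0, and the comparisons share their RA libraries.

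In the remaining comparisons of FOXA2-negative cells, 0 of 8 genes passed edgeR's test for BMP4 over RA (0.0786% of all genes called), for LDN over RA (0.0393%) and for BMP4 over LDN (0.196%). At an unadjusted p below 0.05 there were 1 (Stra8), 0 and 0 of 8 in these comparisons, beside 7.36%, 7.5% and 7.06% of all genes. DESeq2 called none of the 8 in these comparisons. The log2 differences of the 8 genes lay between -1.03 and 0.10, between -0.77 and 0.40, and between -0.41 and 0.28 in these 3 comparisons. The lowest was Dazl after BMP4, with 6.84 ± 2.46 CPM against 14.0 ± 5.61 CPM after RA (SD, n = 3 each). Dazl also averaged 4.57 ± 1.80 CPM after BMP4 in FOXA2-positive cells, against 9.44 ± 1.56 CPM after RA, with a log2 difference of -1.04 ± 0.57 that did not pass (edgeR adjusted p = 0.825). At this SE a log2 difference of 1 lies within 2 SE of 0.

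Morc1 and Dnmt3l had the opposite sign in the 2 fractions after BMP4. For Morc1 the log2 differences of BMP4 over RA were 0.84 ± 0.50 in FOXA2-positive and -0.49 ± 0.46 in FOXA2-negative cells. For Dnmt3l they were 0.65 ± 0.39 in FOXA2-positive and -0.49 ± 0.37 in FOXA2-negative cells. None of these 4 differences passed edgeR's test.

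Other germline genes were counted from 3 lists: piRNA pathway genes, meiotic prophase genes, and germ cell RNA-binding proteins with other testis genes. These and the other pathway lists below were written with earlier results of these data known. The contrast between fractions also chose genes of the set of 8, so the list counts for that contrast are no independent evidence. Of 74 listed genes, 63 had enough reads to be tested, and the 8 genes above were in none of the lists. Between FOXA2-positive and FOXA2-negative cells, edgeR's quasi-likelihood test called 2 of 63 lower in BMP4, 4 of 63 lower in LDN and 0 of 63 in RA cells, and none higher. Of all tested genes, 0.601%, 0.707% and 0.82% were called lower in these treatments, and 0.32%, 0.286% and 0.371% higher. At an unadjusted p below 0.05 there were 17, 17 and 13 of the 63 in BMP4, LDN and RA cells, beside 10.8%, 11.2% and 10.7% of all genes. The libraries of RA cells were taken as paired by number from their correlation, but the reported fit used no block. With the number as a block, Syce2 (-0.57) and Rpl10l (-0.99) were called lower and Psmc3ip (0.79) higher in FOXA2-positive RA cells. DESeq2 called 7 and 6 of the 63 lower in BMP4 and LDN cells, and in RA cells 3, of which Smc1b and Rpl10l were lower and Psmc3ip higher. The median log2 difference of the 63 was -0.69, -0.42 and -0.59 in BMP4, LDN and RA cells, and -0.69, -0.45 and -0.59 with genes at 0 reads in a whole group set to their bound. Below 0 were 49, 41 and 48 of the 63, beside 50%, 52% and 49.8% of all tested genes.

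Of the piRNA pathway list, 1 of 17 tested genes was called lower in BMP4 cells and none in LDN or RA cells. Of all tested genes, 0.601%, 0.707% and 0.82% were called lower in BMP4, LDN and RA cells. The medians of the list were -0.36, 0.00 and -0.32 in BMP4, LDN and RA cells, with 12, 8 and 11 of the 17 below 0. The called piRNA gene was Fkbp6, which encodes a co-chaperone in the loading of PIWI proteins. It had 25.1 ± 2.28 CPM in the FOXA2-positive fraction, against 57.6 ± 16 CPM in FOXA2-negative BMP4 cells (SD, n = 3 each). Its log2 difference of -1.20 ± 0.28 had an adjusted p of 0.0359 by edgeR's test, and the call was lost in 5 of the 6 fits that left out a library and with the compared groups alone. None of the 24 tested meiotic prophase genes was called in any treatment, with medians of -0.69 in BMP4, -0.45 in LDN and -0.72 in RA cells.

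Of the 22 tested germ cell RNA-binding and other testis genes, 1 was called lower in BMP4 and 4 in LDN cells, beside 0.601% and 0.707% of all genes. Rpl10l, a testis-expressed copy of the ribosomal gene Rpl10 whose reads may be shared with its parent, was called in both, with log2 differences of -1.34 ± 0.26 (adjusted p = 0.00762) in BMP4 and -1.48 ± 0.30 (adjusted p = 0.0115) in LDN cells by edgeR. The call in BMP4 cells was lost without FOXA2-positive library 1, without FOXA2-negative library 2 and in a model of the compared groups alone. Hsf2bp, which encodes a meiotic recombination factor, averaged 28.6 ± 4.01 CPM in the FOXA2-positive fraction (SD, n = 2), against 74.2 ± 22.1 CPM in FOXA2-negative LDN cells (n = 3), with an edgeR adjusted p of 0.0123. Sohlh2, a transcription factor gene of spermatogonia and oocytes, averaged 2.02 ± 0.716 CPM in the FOXA2-positive fraction (SD, n = 2), against 12.2 ± 5 CPM in FOXA2-negative LDN cells (n = 3), with an edgeR adjusted p of 0.022. Ldhc, the lactate dehydrogenase of spermatocytes and sperm, had 0 reads in FOXA2-positive and 159 reads in FOXA2-negative LDN cells, at least 34.4-fold lower with 3 reads over the group as the floor. Leaving out either FOXA2-positive LDN library ended the calls of all 4 in LDN cells, and without FOXA2-positive LDN library 3 none of the 63 listed genes passed. Without FOXA2-negative LDN library 1, Hsf2bp, Sohlh2 and Rpl10l did not pass, and without library 3 Ldhc and Sohlh2 did not. These 2 also did not pass with the compared groups alone.

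The DNA methylation list held 16 tested genes, of which 1 was called lower in BMP4 (Tet2), 1 in LDN (Dnmt3b) and 2 in RA cells (Dnmt3a and Tet2), beside 0.601%, 0.707% and 0.82% of all genes called lower. Tet2, which encodes an enzyme that oxidises methylcytosine, averaged 20.7 ± 6.72 and 28.4 ± 0.580 CPM in FOXA2-positive BMP4 and RA cells, against 55.2 ± 29.3 and 87.6 ± 11 CPM in the FOXA2-negative cells of the same treatments (SD, n = 3 each). Its log2 differences were -1.42 ± 0.32 in BMP4 and -1.62 ± 0.32 in RA cells, with edgeR adjusted p-values of 0.0262 and 0.00784. In BMP4 cells the call was lost without any 1 of the FOXA2-positive libraries, without FOXA2-negative library 2 and with the compared groups alone. Dnmt3a, which encodes a de novo methyltransferase that DNMT3L assists, differed by -1.14 ± 0.24 in RA cells (edgeR adjusted p = 0.0121), a call lost without FOXA2-positive RA library 2 or 3. Dnmt3b, the other such enzyme, differed by -0.75 ± 0.18 in LDN cells (edgeR adjusted p = 0.03), a call lost without any 1 of the 5 libraries. Without both RA libraries numbered 1, neither Tet2 nor Dnmt3a passed in RA cells.

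The 16 listed repressors of germline genes, among them the genes of E2F6, MGA, PCGF6 and the H3K9 methyltransferases, were all tested, and none was called between the fractions in any treatment. At an unadjusted p below 0.05 there were 1, 1 and 2 of the 16 in BMP4, LDN and RA cells, beside 10.8%, 11.2% and 10.7% of all genes. Their medians of 0.05, 0.22 and 0.04 in BMP4, LDN and RA cells stood beside -0.00, -0.03 and 0.00 over all genes. The other 3 MORC genes were also not called. Of the 10 tested retinoic acid response genes, Rarg, which encodes a retinoic acid receptor, was called lower in BMP4 cells (-1.35 ± 0.32, edgeR adjusted p = 0.0365), beside 0.601% of all genes. The call of Rarg was lost without any 1 of the FOXA2-positive libraries or without FOXA2-negative library 2. The list's medians were 0.44, 0.21 and 0.25 in BMP4, LDN and RA cells.

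Between treatments within a fraction, none of the 63 listed germline genes was called in any of the 6 comparisons, with between 3 and 9 at an unadjusted p below 0.05, beside between 5.6% and 9.35% of all genes. The only call among the listed pathway genes was Stra6, a retinol receptor gene named after its values were seen. It averaged 17.3 ± 6.48 CPM in FOXA2-negative BMP4 cells and 72.9 ± 8.47 CPM in FOXA2-negative LDN cells (SD, n = 3 each), a log2 difference of -2.07 ± 0.32 with an edgeR adjusted p of 0.00116. All 13 alternatives kept this call, with adjusted p-values up to 0.0188.

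Marker genes of other cell types moved between the same fractions. Pluripotent markers were called lower in FOXA2-positive cells for 7 of 15 genes in BMP4, 6 in LDN and 6 in RA cells by edgeR's test, beside 0.601%, 0.707% and 0.82% of all genes. Pou5f1 averaged 13.3, 9.12 and 12.6 CPM in FOXA2-positive BMP4, LDN and RA cells, against 52.2, 64.1 and 59.0 CPM in the FOXA2-negative cells. Nanog, also a pluripotency factor gene, had 31, 0 and 20 reads in FOXA2-positive BMP4, LDN and RA cells, against 622, 276 and 431 in the FOXA2-negative cells. Zfp42, another pluripotency marker, averaged 20.9, 14.8 and 19.7 CPM in FOXA2-positive BMP4, LDN and RA cells, against 58.5, 62.2 and 93.1 CPM in the FOXA2-negative cells.

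The summed level of 10 primordial germ cell markers lay between 62.3 and 109 CPM in FOXA2-positive libraries and between 120 and 293 CPM in FOXA2-negative libraries. Of the 10, Tfap2c alone was called, lower in each treatment, beside 0.601%, 0.707% and 0.82% of all genes called lower in BMP4, LDN and RA cells. It averaged 21.8, 6.47 and 11.1 CPM in FOXA2-positive BMP4, LDN and RA cells, against 56.6, 82.0 and 56.0 CPM in the FOXA2-negative cells. Dppa3, a gene of germ cells and of naive pluripotent cells, averaged 2.79, 1.85 and 2.08 CPM in FOXA2-positive BMP4, LDN and RA cells, against 29.9, 29.1 and 20.5 CPM in the FOXA2-negative cells, but did not pass (edgeR adjusted p = 0.166, 0.19 and 0.185). Nanos3, required for the survival of primordial germ cells, had 36, 0 and 9 reads in FOXA2-positive BMP4, LDN and RA cells, against 193, 167 and 95 in the FOXA2-negative cells, and did not pass either. Prdm1, which encodes a regulator of primordial germ cell fate that is also made in endoderm, had its higher mean in the FOXA2-positive cells, with 6.36, 20.4 and 16.7 CPM in BMP4, LDN and RA cells against 2.63, 6.13 and 2.33 CPM in the FOXA2-negative cells, and did not pass.

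The summed 2-cell-like markers lay between 0 and 2.06 CPM in FOXA2-positive libraries and between 7.65 and 221 CPM in FOXA2-negative libraries, with 4, 1 and 4 of 7 tested genes called lower in BMP4, LDN and RA cells, beside 0.601%, 0.707% and 0.82% of all genes. At 0 in all FOXA2-positive libraries were Usp17lc, Tcstv1, Tcstv3, Zfp352 and Gm4340. Endoderm markers summed to between 37.2 and 87.8 CPM in FOXA2-positive libraries and between 4.61 and 34.8 CPM in FOXA2-negative libraries, with Cer1 at 0 in all FOXA2-positive libraries. Ferd3l, a floor plate marker, was at 0 in all FOXA2-positive libraries. The sums of floor plate markers included Foxa2, by which the cells were sorted. Foxa2 itself had between 18.4 and 44.2 CPM in FOXA2-positive libraries and at most 2.93 CPM in FOXA2-negative ones. These sums were between 71.0 and 142 CPM in FOXA2-positive libraries and between 29.2 and 59.7 CPM in FOXA2-negative libraries. Those of neural progenitor markers were between 441 and 1063 CPM in FOXA2-positive libraries and between 360 and 674 CPM in FOXA2-negative libraries. Trophoblast markers summed to between 32.8 and 277 CPM in FOXA2-positive libraries and between 90.7 and 326 CPM in FOXA2-negative libraries, and testicular somatic markers to between 11.4 and 33.5 CPM and between 9.89 and 29.4 CPM, with Dhh at 0 in all FOXA2-positive libraries. The part of pluripotent, germ cell-like or 2-cell-like cells in the levels of the 8 genes was not tested.

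How alike the genes were to each other is described by Pearson's r of log2 CPM over the 17 libraries, which share their scaling and span both fractions. The 28 pairs of the 8 genes had r between 0.05 and 0.87 with a median of 0.45. After the mean of each group was taken off, r lay between -0.64 and 0.63 with a median of 0.07, and 17 of 28 pairs were above 0.

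Among 9992 genes with at least 5 CPM on average, the 3 most like each member were found by the same measure. For Morc1 these were Pttg1 (r = 0.95), Aqp3 (0.95) and Gtsf1l (0.94), and for Dnmt3l they were Aqp3 (0.92), Pttg1 (0.92) and H2-M5 (0.91). Those 2 genes thus shared Aqp3, a water channel gene, and Pttg1, the securin gene. Tex19.1 was most like Ech1, Pml and Nodal (0.92 each). Tdrd12 was most like Rpl10l (0.93), Ash2l (0.92) and Aoah (0.91). For Stra8 the nearest were Mylpf (0.91), Cyp1a1 (0.90) and B3gnt7 (0.90). Ddx4, Dazl and Mael were most like other genes, with Plpp3 (0.90), Spindoc (0.89) and Itgav (0.81) for Ddx4, Six4 (0.82), Tubgcp5 (0.82) and Diaph3 (0.81) for Dazl, and Efcab11 (0.74), Arhgap8 (0.71) and Cab39l (0.70) for Mael. These values are descriptions over libraries, with no test.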

How the data were processed

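The authors deposited raw counts per Ensembl gene for each of the 17 libraries, not normalised. The tools named per the submitters' processing notes are HTSeq 0.11.2, DESeq2 1.26.0, UMI-tools 1.0.0 and cutadapt 1.18, with the build mm10. Aligner, annotation release and strand setting: not given in the sources used here. The 5 summary lines of each table, which name no gene and held 49.3% to 54.4% of tallied reads, were left out of library sizes and tests.

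Groups were taken from the library titles. Symbols and exon lengths came from GENCODE M21 (GRCm38, the assembly also called mm10), which matched 49412 of 49671 genes, and promoter windows from RefSeq. In edgeR 4.0.16 (R 4.3.3), filterByExpr with a minimum count of 10 and a minimum total of 15 chose the genes tested, which were scaled by TMM and fitted in 1 model of 6 groups with a robust quasi-likelihood fit (11 residual degrees of freedom). P-values were adjusted over all 17813 genes, and genes with an adjusted p below 0.05 are said to be called. CPM values use TMM-scaled library sizes, and the SE was taken as the log2 difference over the root of its F statistic. The script was tested on simulated data with known changes.

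Alternatives were RLE scaling, no filter, a filter of 5 CPM in 2 libraries, the replicate number as a block, the compared groups alone, DESeq2 1.42.0, both RA libraries numbered 1 left out, and each library left out in turn. Deviations of same-numbered fractions from their group means correlated over 6669 genes at 0.587, 0.238 and 0.277 in RA cells. All were above 0.1, so these were taken as paired, though the reported fit used no block. Same-numbered libraries of different treatments in the same fraction correlated between -0.163 and 0.283. Named genes were the 8 genes, up to 4 called genes per list, fixed markers and the 3 most correlated genes per member. Tfap2c, Tfap2a, Gata3, Syce2, Psmc3ip, Smc1b, Stra6 and Sohlh1 were named after their values were seen. Members and lists were chosen with earlier results of these data known. The labels do not say whether same-group libraries stem from separate cultures: the p-values then reflect the spread between these libraries alone, and that may be technical.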

Additional observations from a re-analysis of the deposited data

How the results depend on the processing

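With 2 or 3 libraries a group, calls depended on single libraries and on the tool. Between fractions the direction of Tex19.1, Tdrd12, Morc1, Stra8, Dnmt3l and Dazl held in every alternative run. Nothing is read from this, since several of the 8 genes were chosen for that direction. The log2 difference between fractions changed sign in 3 of 304 alternative values, all of Ddx4 or Mael, and between treatments in 47 of 608, none larger than 0.42 in size in the reported fit. The median over the 8 genes lay between -1.20 and -0.91 in BMP4, -1.81 and -1.37 in LDN and -1.23 and -0.99 in RA cells with a library left out. The listed germline genes called between fractions were 2 in BMP4 cells (5 without a filter, of which Sohlh1 was higher and not lower, 4 with the replicate block, 1 with the compared groups alone, which was Sohlh1, again higher, 7 with DESeq2, and 0 to 3 with a library left out). They were 4 in LDN cells (7, again with Sohlh1 higher, without a filter, 2 with the groups alone, 0 to 4 left out) and 0 in RA cells (1 with the stricter filter, 3 with the replicate block, 3 with DESeq2, in both of which Psmc3ip was higher, and 0 to 1 left out). The single call of Tex19.1 in FOXA2-positive cells became 0 with the groups alone in both comparisons, and 0 to 1 for LDN over RA and 0 for BMP4 over LDN with a library left out. Without a filter Tex19.1 passed in each comparison of fraction effects that involved LDN. Nothing is read from this, since the fraction effects entered the choice of genes. The cause of these changes was not tested. Same-numbered fractions correlated at only 0.051 to 0.079 in BMP4 and 0.057 to 0.062 in LDN cells, so the block there pairs by number alone, and it ended the call of Sohlh2 in LDN cells. It moved all genes called between fractions to 282 from 164 in BMP4, 220 from 177 in LDN and 362 from 212 in RA cells, and changed no call of the 8 genes between treatments. Over all genes DESeq2 called 404, 481 and 441 between fractions in BMP4, LDN and RA cells, and no filter gave 411, 460 and 466. Other counts of all genes called ranged from 61 to 257 between fractions over the remaining alternatives. The 6 comparisons between treatments called 7 to 57 of all genes, against 39 to 202 with DESeq2, 83 to 294 without a filter and 3 to 95 with the groups alone. The fraction effects differed for 1 (BMP4 over RA), 1 (LDN over RA) and 6 genes (BMP4 over LDN), for 5, 8 and 34 with DESeq2, and for 31, 31 and 54 without a filter. The lowest library held 9 reads for Morc1, 20 each for Dazl and Ddx4, 21 for Tex19.1 and 22 for Mael, which limits the precision of these values.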

Other observations

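Sohlh1, a transcription factor gene of spermatogonia that works with Sohlh2, was one of the listed testis genes. In BMP4 and LDN cells its log2 difference between fractions had the opposite sign to that of Sohlh2. In RA cells both were negative (-2.01 ± 1.93 for Sohlh1 and -0.74 for Sohlh2). The sign of Sohlh1 in LDN cells (6.68 ± 2.99) rests on 27 reads in FOXA2-positive library 2. In RA cells it rests on 11 reads in FOXA2-positive library 2 and 40 in FOXA2-negative library 3. Sohlh1 was chosen after its values were seen. It had 32.3, 22.5 and 3.49 CPM in FOXA2-positive BMP4 cells, against 0 reads in all 3 FOXA2-negative BMP4 libraries. With 3 reads over the group as the floor it was at least 181-fold higher in the FOXA2-positive BMP4 cells. Elsewhere it was near 0, with at most 2.56 CPM in FOXA2-positive LDN and 4.39 CPM in FOXA2-negative RA cells. It was not called in the reported fit (edgeR adjusted p = 0.165 in BMP4 cells), and was called with the compared groups alone (edgeR adjusted p = 0.00424) and without a filter (7.79e-08).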
